A study of Mus musculus with 6 samples.

Results

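A set of 10 genes of transforming growth factor beta (TGF-beta) signalling was followed in cultured mouse B lymphoma cells with and without a hairpin against Dhx9, which encodes a DExH-box helicase of RNA and DNA. They are the ligand genes Tgfb1, Tgfb2 and Tgfb3, the latent TGF-beta binding protein genes Ltbp1, Ltbp2, Ltbp3 and Ltbp4, the receptor genes Tgfbr1 and Tgfbr2, and the inhibitor gene Smad7. They were taken by gene symbol from 18784 genes measured on the arrays, and 10 of 10 were found, each with 1 probe set. The genes were chosen by family, and the family was put forward with the fall of Tgfb3 between these groups of arrays known, so the levels and changes of the 10 genes are given as a description, without p-values. Whether a gene was called refers to an adjusted p under 0.05 in a limma fit over all 18784 genes.

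The cells were Arf-/-Eu-myc/Bcl-2 lymphomas: they lack the tumour suppressor Arf, overexpress MYC from an immunoglobulin enhancer active in B cells, and carry Bcl-2. All were grown in culture on irradiated Arf-/- mouse embryonic fibroblasts. The control hairpin Rluc.713, directed at Renilla luciferase, was used on 3 arrays and Dhx9.1241 on the other 3. The study's title concerns resistance of MYC-driven lymphomas to the BCL-2 family inhibitor ABT-737, and the labels give no drug for these arrays. Each group rests on 1 hairpin, and no label says whether its 3 arrays came from separate cultures or tumours, so all errors are those between arrays and may be only technical.

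TGF-beta ligands are secreted as dimers held inactive by their own propeptide. Latent TGF-beta binding proteins attach this small latent complex to the extracellular matrix, and integrins or proteases release the active ligand. The active ligand brings the type II receptor (Tgfbr2) and the type I receptor (Tgfbr1) together, and the type I receptor phosphorylates Smad2 and Smad3, which act on target genes with Smad4. Smad7 is induced by the pathway and blocks the type I receptor. In B cells, TGF-beta is known to restrain growth and to promote apoptosis and the switch to IgA.

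The sample titles name Dhx29 where the hairpin labels name Dhx9, and the groups follow the hairpin. The Dhx9 level was 12.41, 12.48 and 12.36 on the log2 scale in the controls and 11.46, 11.43 and 11.38 with Dhx9.1241, a 1.99-fold lower mean. Every array had high values for the B cell genes Cd79a and Cd79b, with control means of 13.8 and 13.9 against a median of 8.47 over all genes. On the second principal component of all genes, control replicate 1 was at 16.7 and its fellow controls at -4.81 and -5.29, and changes that turn on it are given with and without it. The files used here hold no detection call, so whether a dim probe set reads its transcript was not tested; the probe sets of Tgfb2 and Ltbp1 lay below the median.

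The ligand genes Tgfb3 and Tgfb1 and the binding protein gene Ltbp4 were lower in Dhx9.1241, while no gene of the family was called higher. Thus 3 of 10 genes were called lower, where 1.07% of all genes were, and 0 of 10 were called higher, where 2.07% of all genes were. Since this comparison was known when the genes were chosen, nothing is read from these shares. The median log2 change over the 10 genes was -0.0087, beside 0.0049 over all genes, with 5 genes above 0 and 5 below. In samples of bulk RNA, a lower level may come from fewer cells of a type or from less RNA per cell, and these cannot be told apart.

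**Figure D1:**
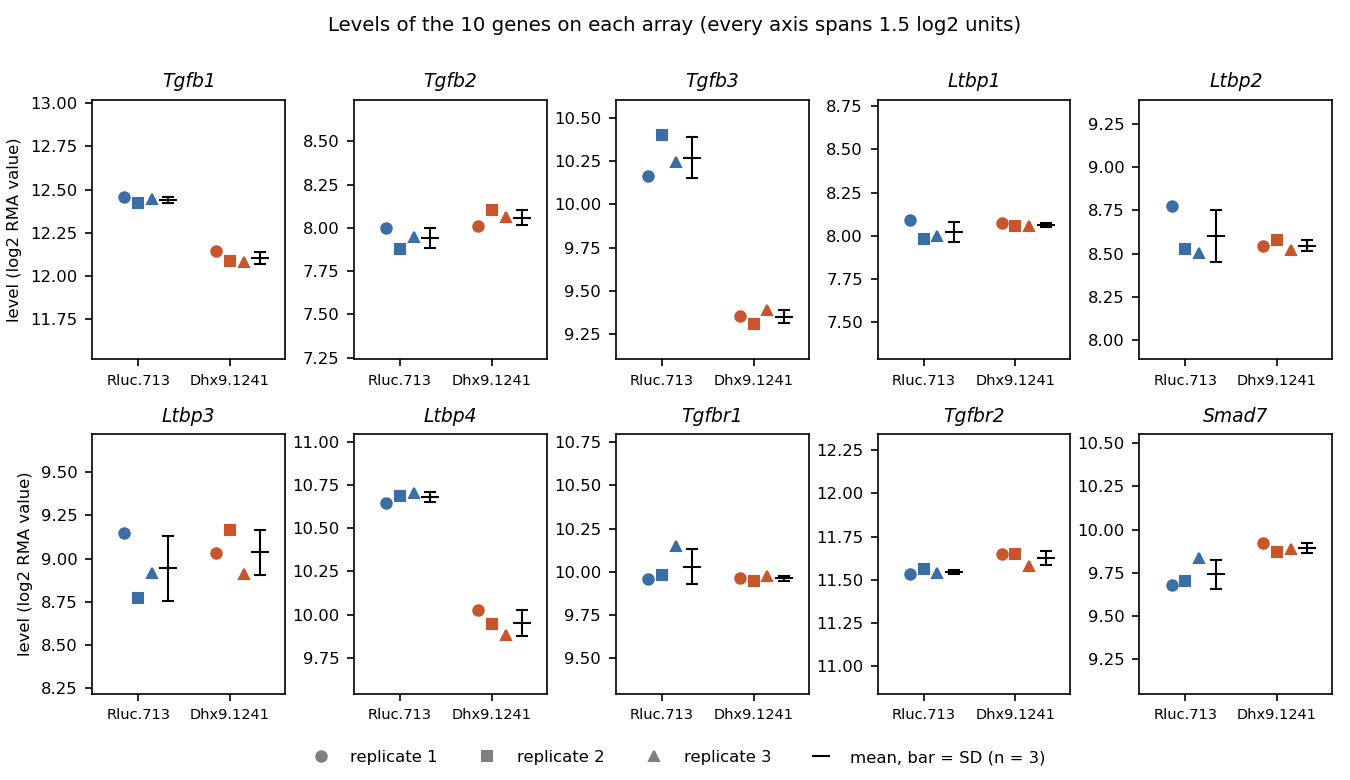
Log2 RMA level of each of the 10 genes (y axis, 1 panel per gene, every axis spanning 1.5 log2 units) on the 3 Rluc.713 arrays (blue) and the 3 Dhx9.1241 arrays (orange); the marker shape gives the replicate number and the black bar the mean and SD. The 2 groups lie far apart for Tgfb3, Ltbp4 and Tgfb1, and close together or overlapping for the other 7 genes.

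Among the ligands, Tgfb3 differed most. Tgfb3, the isoform known for its part in palate and lung development (probe set 21809_at), was at 10.16, 10.40 and 10.25 in the controls and at 9.36, 9.31 and 9.39 in Dhx9.1241. The groups were separated by 0.78, more than 3 times the width of the control range, and the Dhx9.1241 arrays lay close to one another. The means were 10.27 ± 0.12 and 9.35 ± 0.040 (SD, n = 3), a log2 change of -0.92 (95% interval -1.07 to -0.77) or a 1.89-fold lower level.

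Tgfb1, the ligand made by most blood cells (21803_at), was at 12.46, 12.42 and 12.44 in the controls and at 12.15, 12.09 and 12.08 in Dhx9.1241. Its arrays were tight within each group, with SDs of 0.017 and 0.035, and the groups were separated by 0.28. The log2 change was -0.34 (interval -0.44 to -0.23), a 1.26-fold lower level. Within each array, the value of Tgfb1 minus that of Tgfb3 was 2.02 to 2.29 in the controls and 2.70 to 2.79 in Dhx9.1241, so Tgfb3 fell further than Tgfb1, by 0.58 on the log2 scale in the mean. The call of Tgfb1 was lost when Dhx9.1241 replicate 3 was left out (log2 change -0.33).

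Tgfb2, the third ligand, which binds the type II receptor poorly without the co-receptor betaglycan (21808_at), did not share the fall. It was at 7.999, 7.88 and 7.95 in the controls and at 8.01, 8.10 and 8.06 in Dhx9.1241. The Dhx9.1241 arrays were all higher, but the lowest of them lay only 0.014 above the highest control. The log2 change was 0.12 (interval -0.0037 to 0.24), and the gene was not called.

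The latent binding proteins differed among themselves. Ltbp4, a matrix protein needed for elastic fibre assembly as well as for holding latent TGF-beta 1 (108075_at), was at 10.65, 10.69 and 10.70 in the controls and at 10.03, 9.94 and 9.88 in Dhx9.1241. The separation of 0.62 was larger than the range within either group. The means were 10.68 ± 0.030 and 9.95 ± 0.072 (SD, n = 3), a log2 change of -0.73 (interval -0.85 to -0.60) or a 1.65-fold lower level.

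The other 3 binding protein genes were not called, and their groups overlapped. Ltbp1, which like Ltbp3 can bind all of the TGF-beta propeptides (268977_at), ranged from 7.98 to 8.09 in the controls and from 8.06 to 8.07 in Dhx9.1241, with a log2 change of 0.04 (interval -0.07 to 0.15). Ltbp2, the member of this group that does not bind latent TGF-beta (16997_at), was at 8.77, 8.53 and 8.50 in the controls and at 8.54, 8.58 and 8.52 in Dhx9.1241. Control replicate 1 was its highest array, and the log2 change of -0.06 (interval -0.23 to 0.12) became 0.03 without that array. Ltbp3 (16998_at), known for roles in bone and teeth, was at 9.15, 8.77 and 8.92 in the controls and at 9.03, 9.17 and 8.91 in Dhx9.1241. It had the widest spread of the 10 genes in both groups, with SDs of 0.19 and 0.13, and its log2 change of 0.09 had an interval of -0.14 to 0.32. With 1 array left out, the change ranged from 0.0061 (without control replicate 2) to 0.19 (without control replicate 1); it was 0.027 without Dhx9.1241 replicate 2, and the gene was not called in any of these fits.

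The receptor genes stayed near their control levels. Tgfbr2, the ligand-binding type II receptor (21813_at), was at 11.54, 11.56 and 11.54 in the controls and at 11.65, 11.65 and 11.58 in Dhx9.1241. All Dhx9.1241 arrays were above all controls, by as little as 0.017, and the log2 change was 0.08 (interval -0.03 to 0.19). Tgfbr1, the kinase that phosphorylates the receptor Smads (21812_at), was at 9.96, 9.98 and 10.15 in the controls and at 9.96, 9.94 and 9.97 in Dhx9.1241. Its groups overlapped, control replicate 3 was its highest array, and the log2 change of -0.07 had an interval of -0.21 to 0.07. Without that array the change was -0.0090. Neither gene was called, and their intervals lay within 0.21 of 0 on the log2 scale.

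Smad7, the feedback inhibitor (17131_at), was at 9.68, 9.70 and 9.84 in the controls and at 9.92, 9.87 and 9.89 in Dhx9.1241. The Dhx9.1241 arrays were all higher, with 0.035 between the groups, and control replicate 3 lay nearest to them. The log2 change was 0.15 (interval 0.02 to 0.28), a 1.11-fold higher mean, and the gene was not called over all genes.

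**Figure D2:**
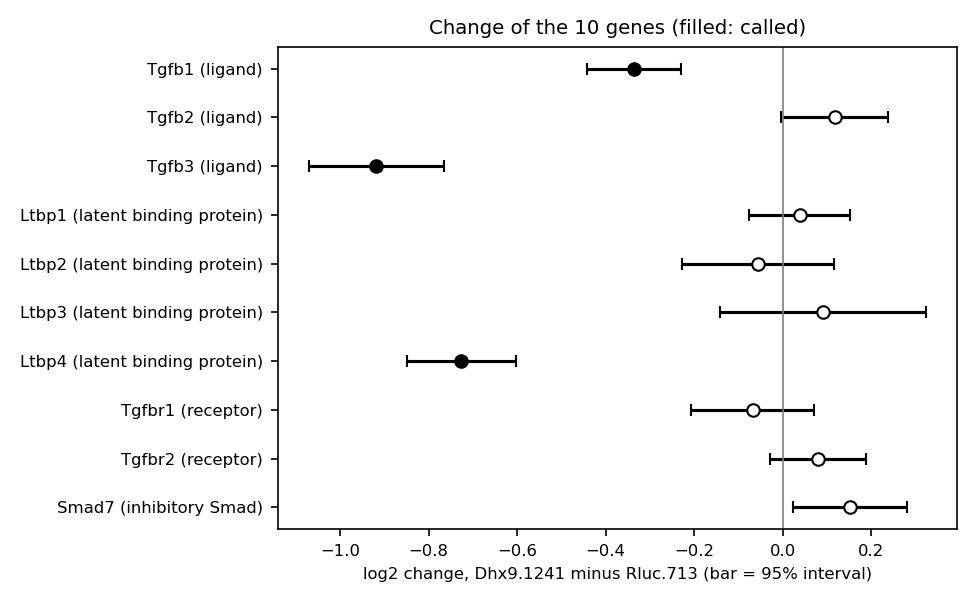
Log2 change of each of the 10 genes (x axis, Dhx9.1241 minus Rluc.713, with the 95% interval of the limma fit), with the role of each gene at the left and filled points for genes called over all genes. Tgfb3 (-0.92), Ltbp4 (-0.73) and Tgfb1 (-0.34) lie below 0 with intervals that do not reach it, and the other 7 changes lie between -0.07 and 0.15. Of these 7, only Smad7, which was not called, has an interval clear of 0 (0.02 to 0.28).

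Across the family, the groups did not overlap for 6 of the 10 genes, 3 lower in Dhx9.1241 (Tgfb3, Ltbp4 and Tgfb1) and 3 higher (Smad7, Tgfb2 and Tgfbr2). Over all genes, 8.51% had groups that did not overlap in the lower direction and 11.6% in the higher. The gaps were of different size: 0.28 to 0.78 for the 3 lower genes and 0.014 to 0.035 for the 3 higher ones. The calls of Tgfb3 and Ltbp4 were kept in 14 of 14 alternative fits, with log2 changes of -0.97 to -0.85 and -0.76 to -0.69. That of Tgfb1 was kept in 13 of 14, with -0.36 to -0.32. Among the 14, the mean over probe sets is no separate check, since each of these genes had 1 probe set. The other 7 genes were called in none of the alternatives that measured them.

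**Figure D3:**
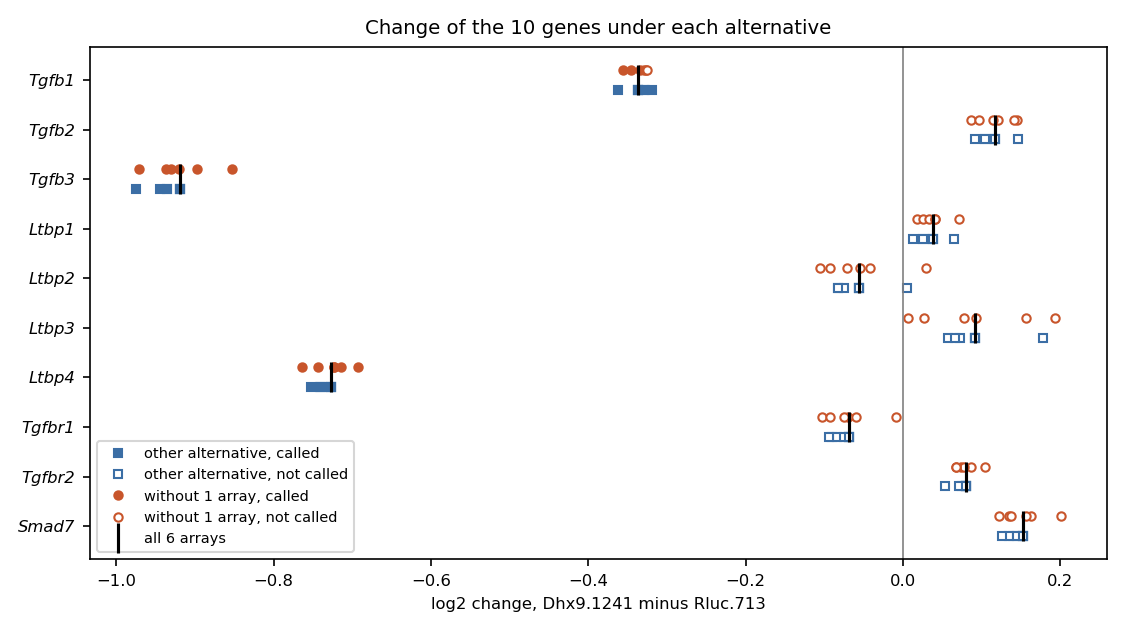
Log2 change of each of the 10 genes (x axis) with all 6 arrays (black line), without 1 array (orange circles) and under the other alternatives (blue squares); filled symbols were called. Tgfb3 and Ltbp4 are filled throughout, Tgfb1 has 1 open symbol (without Dhx9.1241 replicate 3), and only Ltbp2 has symbols on both sides of 0.

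The profile of Tgfb3 over the 6 arrays was set beside that of every other gene, by the root mean square difference between their log2 values after each gene was centred on its mean. Leaving out clone names, the 5 nearest genes were Fcmr, the IgM receptor gene (difference 0.074), Dhx9 (0.074), Cth of cysteine synthesis (0.10), the inflammasome sensor gene Nlrp3 (0.12) and Tm6sf1 (0.12). All of them were lower in Dhx9.1241, with log2 changes of -0.99 to -0.74. Ltbp4 was the nearest gene of the family, at a difference of 0.13 and position 9 of all genes, and Tgfb1 stood at 0.30 and position 140. This likeness describes 6 arrays and uses the hairpin difference itself.

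Promoter windows, from 250 bases before to 50 bases after an annotated start, were read from RefSeq (GRCm38.p6) for 8 of the 10 genes; those of Tgfb3 and Smad7 were not in the promoter table used here. The windows of Tgfb1 and of the upstream start of Ltbp4 are shown because these genes were lower together. Capitals mark every GC box (GGGCGG on either strand, the letters read by Sp1-type factors), 6 in Tgfb1 and 3 in Ltbp4.
Tgfb1, chr7:25686752-25687051, plus strand: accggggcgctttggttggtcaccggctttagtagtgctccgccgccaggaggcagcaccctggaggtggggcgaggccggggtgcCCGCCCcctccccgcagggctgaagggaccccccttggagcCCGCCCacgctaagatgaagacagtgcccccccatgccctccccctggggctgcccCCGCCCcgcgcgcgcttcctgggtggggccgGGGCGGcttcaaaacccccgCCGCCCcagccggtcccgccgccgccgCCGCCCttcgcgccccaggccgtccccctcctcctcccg
Ltbp4, chr7:27337563-27337862, minus strand: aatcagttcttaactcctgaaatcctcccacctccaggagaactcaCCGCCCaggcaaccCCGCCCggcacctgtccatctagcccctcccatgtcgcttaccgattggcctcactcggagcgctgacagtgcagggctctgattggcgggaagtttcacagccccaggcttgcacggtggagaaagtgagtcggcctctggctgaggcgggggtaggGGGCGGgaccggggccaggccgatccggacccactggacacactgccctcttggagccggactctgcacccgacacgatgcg
The GC content was 77% for Tgfb1 and 64.3% for this Ltbp4 window, against a median of 52.7% over 32851 promoter windows. It was 80.3% and 81.3% in the other Ltbp4 windows. Of the genes not called, Tgfbr1 had 74.7% at its upstream start, and the remaining windows had 48% to 61%. A GC box was found in 35.7% of those windows. The other 2 Ltbp4 windows, which overlap each other, held 7 and 9 GC boxes, and that of Tgfbr1, a gene that was not called, held 2 at its upstream start, as did that of Ltbp2. The cyclic AMP response element (TGACGTCA, in 1.79% of all windows) was found in 1 Ltbp1 window. The E-box read by MYC and MAX (CACGTG, 7.15%) was found in that of Tgfb2, and the AP-1 site (TGANTCA, 7.81%) in that of Ltbp3. The Smad palindrome (GTCTAGAC, 0.213%) was in none of the windows read. Both strands were searched, and none of these motifs contains another.

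The wider pathway was taken from 4 lists written with earlier results of these data known. Of 27 measured genes of latency, storage and activation, 2 fell and 1 rose, where 1.07% of all genes were called lower and 2.07% higher. On the list, 24 were not called, and the median log2 change was 0.01. Before adjustment, 5 were higher and 5 lower at p under 0.05, where 8.50% of all genes were higher and 5.63% lower at that threshold. Lrrc32, which encodes GARP, a membrane protein that tethers latent TGF-beta to the cell surface (434215_at), was at 10.62, 10.79 and 10.68 in the controls and at 10.20, 10.26 and 10.08 in Dhx9.1241. It fell in all 3 arrays, with a log2 change of -0.52 (SE 0.066, adjusted p = 0.00579 in limma). Igf2r, the mannose 6-phosphate receptor, which binds latent TGF-beta as well as lysosomal enzymes (16004_at), was at 9.83, 9.96 and 9.92 in the controls and at 10.51, 10.37 and 10.38 in Dhx9.1241. It rose by 0.52 (SE 0.059, adjusted p = 0.00365). Both kept their calls in 14 of 14 alternatives. Mmp14, a membrane-bound matrix protease, fell by 0.25 (SE 0.049, adjusted p = 0.0382), a call kept in 7 of 14 alternatives and in 1 of the 6 fits without 1 array (the one without control replicate 1). Fibronectin, Fn1 (-0.28, adjusted p = 0.281), and the protease gene Mmp9 (-0.24, adjusted p = 0.109) had the largest changes among genes not called.

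Of 28 genes that carry or restrain the signal inside the cell and at the receptor, 1 fell, none rose and 27 were not called. Over all genes, 1.07% were called lower and 2.07% higher, and the median log2 change of the list was -0.01. At an unadjusted p under 0.05, 0 were higher and 1 lower in limma, where 8.50% and 5.63% of all genes were. The one that fell was Eng, which encodes the co-receptor endoglin (13805_at), at 8.23, 8.32 and 8.39 in the controls and at 7.91, 8.07 and 8.06 in Dhx9.1241. Its log2 change of -0.30 had an adjusted p of 0.0494, and both of its group means lay below the median of all genes. Eng passed in 4 of the 13 alternatives that measured it, among them 1 of the 6 fits without 1 array (the one without control replicate 1). The corepressor gene Tgif2 (0.14, adjusted p = 0.528) and Ldlrad4, an inhibitor of receptor Smad activation (0.11, adjusted p = 0.44), came next.

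Of 28 measured genes known as targets of TGF-beta, 3 rose, none fell and 25 were not called. Over all genes, 2.07% were called higher and 1.07% lower, and the median log2 change of the list was 0.04. No direction of response to TGF-beta was set for the genes of this list, so its counts and median do not measure the activity of the pathway. Cdkn1a, the cell cycle inhibitor p21 (12575_at), rose by 0.47 (adjusted p = 0.00954), Bcl2l11, the BH3-only death gene BIM (12125_at), by 0.35 (adjusted p = 0.0132), and S1pr1, a receptor that guides lymphocyte exit from tissues (13609_at), by 0.32 (adjusted p = 0.0253). Cdkn1a is also a p53 target gene, and each of the 3 answers to other signals too. With Dhx9.1241 replicate 3 left out, Cdkn1a no longer passed (adjusted p = 0.0545), nor did Bcl2l11 with replicate 1 (0.0651) or 2 (0.0632) of that group left out. Among the 6 fits without 1 array, S1pr1 passed only in the one without control replicate 1. The transcription factor genes Bhlhe40 (0.32, adjusted p = 0.114) and Atf3 (0.31, adjusted p = 0.0534) had the largest changes among genes not called. Before adjustment, 9 targets were higher and 3 lower at p under 0.05, beside 8.50% and 5.63% of all genes.

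Of 44 measured genes of the activin, BMP and related branches, none was called in limma, where 2.07% of all genes were called higher and 1.07% lower. Before adjustment, 1 of the list was higher and 1 lower at p under 0.05, where 8.50% and 5.63% of all genes were. The BMP type II receptor gene Bmpr2 (0.26, adjusted p = 0.0639) and the oocyte ligand gene Bmp15 (0.18, adjusted p = 0.572) had the largest changes, and the median was 0.01.

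**Figure D4:**
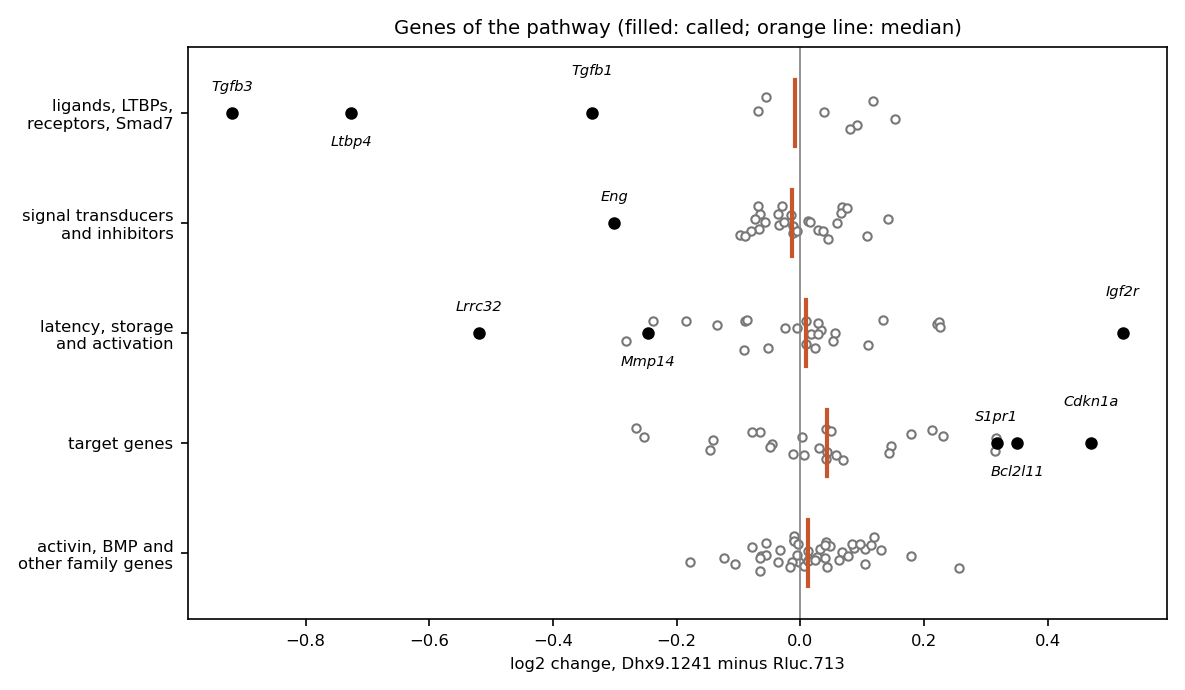
Log2 change (x axis, Dhx9.1241 minus Rluc.713) of every measured gene of the family and of the 4 pathway lists (rows); points are genes, filled and named where called, and the orange line is the median of the row. The medians lie between -0.01 and 0.04, and the called genes lie on both sides of 0.

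Markers of other cell types were read on the same arrays, since myeloid cells and fibroblasts also make these ligands and binding proteins. Of 16 measured myeloid markers, 5 fell and none rose, where 1.07% of all genes were called lower and 2.07% higher. The 5 were Lyz2 (log2 change -1.31), Csf1r (-0.45), Tyrobp (-0.37), Cybb (-0.35) and Fcer1g (-0.32). The adjusted p of these 5 in limma ranged from 0.000129 to 0.0252. Their calls were kept in 6 of the 6 fits without 1 array for Lyz2 and Tyrobp, in 2 for Csf1r and in 1 for Cybb and Fcer1g. Not every marker pointed the same way: Fcgr3 (0.22, adjusted p = 0.0972) and Itgam (0.21, adjusted p = 0.152) were not called, but their Dhx9.1241 arrays all lay above the controls. Before adjustment, 2 myeloid markers were higher and 7 lower at p under 0.05, where 8.50% and 5.63% of all genes were. The summed linear level of the list was 15360 to 16387 in the controls and 12938 to 13714 in Dhx9.1241, so the groups did not overlap. Cybb and Fcgr3 were the brightest of the list in the controls, at 12.39 and 11.56, and so weigh most in the sum. On the list, 10 of the 16 lay below the median of all genes. Among those 10, Adgre1, S100a8, Csf3r and Fcgr1 had log2 changes of -0.01, -0.01, -0.0010 and -0.05. The rest of the 10 lay further below 0: Csf1r, given above, Mpeg1 (-0.37), Cd14 (-0.17), Mpo (-0.12), Elane (-0.11) and S100a9 (-0.08). Mpeg1 was not called (adjusted p = 0.0862), but its Dhx9.1241 arrays all lay below the controls. Over the whole list, 14 changes were below 0 and 2 above, with a median of -0.11.

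The feeder layer consisted of fibroblasts. Of 19 markers of these cells 1 fell and none rose, where 1.07% of all genes were called lower and 2.07% higher. The marker that fell was Cav1 (-0.25, adjusted p = 0.0485), not called in any of the 6 fits without 1 array. The summed level of the markers was 19737 to 20284 in the controls and 20664 to 21372 in Dhx9.1241, higher on each Dhx9.1241 array. It was made up largely of Vim, which lymphocytes also express and whose control mean was 13.8. Vim was not called (0.13, adjusted p = 0.227), but its Dhx9.1241 arrays all lay above the controls, so the rise of the sum may be that of Vim. The next brightest was Acta2 at 9.44, which was not called (-0.21, adjusted p = 0.238). Fn1, also on this list, was not called (-0.28), and the collagen genes Col1a1 and Col3a1 had log2 changes of -0.05 and -0.02. Before adjustment, 1 fibroblast marker was higher and 3 lower at p under 0.05, where 8.50% and 5.63% of all genes were. Across the 19 fibroblast markers, 7 changes were above 0 and 12 below, with a median of -0.03. Of 9 B cell markers, only Vpreb3 was called and it fell (-0.57, adjusted p = 0.000891), beside the same 1.07% of all genes called lower. Ms4a1, the CD20 gene, was not called (0.31, adjusted p = 0.0717), with all Dhx9.1241 arrays above the controls, and before adjustment 1 marker of the list was higher and 3 lower at p under 0.05. The summed level of the list was 70800 to 75390 in the controls and 65028 to 68221 in Dhx9.1241. Vpreb3, with a control mean of 13.0, weighs in that sum, and the brightest markers, Cd79b and Cd79a, had log2 changes of -0.07 and -0.11. None of 9 T and NK cell markers and none of 5 platelet and megakaryocyte markers was called in limma, and before adjustment each list had 1 gene higher and 0 lower at p under 0.05, beside the same 8.50% and 5.63% of all genes. Among them Cd2 (12.3) and Klrb1c (8.18), and Itga2b (8.51) and Itgb3 (8.38), had the highest control means. The lower myeloid and B cell sums moved with the lower levels of Tgfb3, Tgfb1 and Ltbp4, and their part in those levels was not tested.

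**Figure D5:**
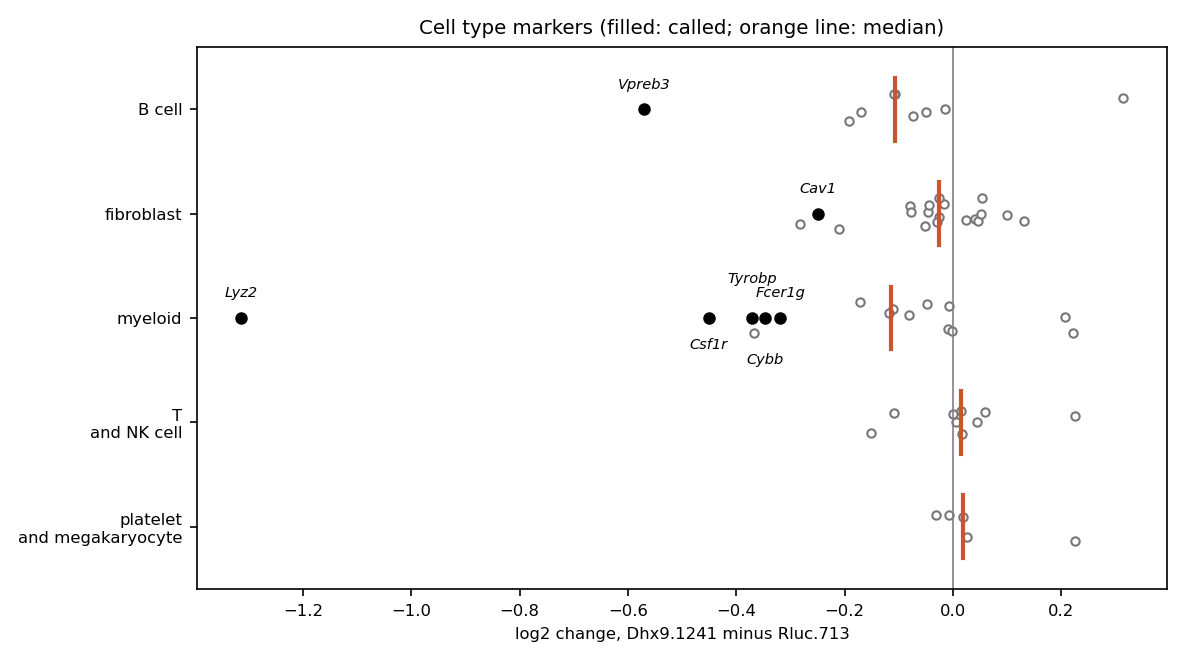
Log2 change (x axis, Dhx9.1241 minus Rluc.713) of the measured markers of 5 cell types (rows); points are genes, filled and named where called, and the orange line is the median of the row. The called markers all lie below 0, 5 of them in the myeloid row, while the T, NK and platelet rows hold none.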

How the data were processed

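RNA from 6 samples was hybridised to Affymetrix arrays. The authors deposited log2 values made by RMA, per the submitters' processing notes, with 1 value for each probe set on each array. Sources used here do not name the RMA version, the build or how probe sets were defined. RMA corrects background, normalizes arrays to 1 distribution and summarises probes, which tends to compress the changes of dim genes. The log2 scale was taken from the array medians of 8.43 to 8.51.

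Of 21212 probe sets, 18786 had 1 gene symbol in the platform annotation, 6 several and 2420 none here; only the first kind was used, with 18775 symbols updated by Entrez number through a table of assembly GRCm38.p6. For 2 genes with several probe sets the one with the highest mean was kept, which left 18784 genes; dim genes were not filtered out. Dhx9.1241 minus Rluc.713 was fitted with limma 3.58.1 in R 4.3.3, with no covariate and Benjamini-Hochberg adjustment over all genes, and all adjusted p-values come from this two-sided test. The fit was tested on simulated data.

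The members and the lists were chosen with earlier results of these data known. Named genes were the 10 members, Dhx9, the 5 genes nearest to Tgfb3, in each pathway list the called genes and the 2 others with the largest change, and in each marker list the called genes and the 2 with the highest control mean; further markers were chosen after their values were seen. Alternatives were each array left out, the replicate number as a block, quantile normalization again, cyclic loess, centring on array medians, a filter at the median level, a variance trend with robust estimation, array weights, and the mean over probe sets (for calls of single genes, not for counts of calls). The last leaves a gene with 1 probe set as it was, so it is no separate check for the members and listed genes. Promoter sequences are those of RefSeq, GRCm38.p6.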

Additional observations from a re-analysis of the deposited data

How the results depend on the processing

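The precision is limited by 3 arrays in each group, and a fit without 1 array has less power. Leaving out 1 array gave 126 to 497 genes higher and 70 to 399 lower, where all arrays gave 389 and 201; the fit without control replicate 1 gave the most. The replicate number as a block gave 172 and 92. Deviations of same-numbered arrays from their group means had correlations of -0.27, -0.34 and 0.24 over genes. The largest correlation across the groups, 0.48, was between control replicate 1 and Dhx9.1241 replicate 2. With 3 arrays in each group, these values cannot decide whether the numbers mark a shared batch. Centring gave 250 higher and 185 lower. Quantile normalization again gave 517 higher and 353 lower, and cyclic loess 508 and 341. The filter at the median level gave 609 and 382, a variance trend with robust estimation 673 and 466, and array weights 669 and 542.

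Members called lower numbered 3 under every alternative, except 2 without Dhx9.1241 replicate 3 (the call of Tgfb1), and none was called higher. Ltbp2, at -0.06 with all arrays, ranged from -0.11 (without control replicate 3) to 0.030 (without control replicate 1), and was 0.0058 with array weights.

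Among signal transducers, 0 to 1 were lower when 1 array was left out, and 0 were lower with the block, quantile normalization again, cyclic loess and centring. The filter also gave 0 lower, but it left out Eng, whose group means of 8.32 and 8.02 lay below the median of 8.47. For latency, storage and activation, 1 to 2 were higher and 1 to 3 lower when 1 array was left out. Quantile normalization again, cyclic loess, the filter and array weights gave 3 higher, the variance trend 2 higher and 1 lower, and the block 1 lower. For target genes, 1 to 4 were higher and 0 to 2 lower when 1 array was left out. The filter, the variance trend and array weights gave 5 higher, and 1 was lower after quantile normalization again and 2 with array weights. For the activin and BMP list, quantile normalization again, cyclic loess, the filter, the variance trend and array weights gave 1 higher. The median change of all genes moved by under 0.03 in each alternative. The cause of these differences was not tested.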
